A study of Mus musculus with 6 samples.

Results

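The genes of the primary cilium and of cystic kidney disease were examined in ureteric bud cells after conditional deletion of Ash2l. Members were taken by name: every gene whose symbol begins with Ift, Bbs or Nphp followed by a digit, and 14 further symbols. This gave 38 of the 17189 genes of the deposited table. Umod, which is among those 14 symbols, is not among the 38 and was not analysed here. RNA was sequenced from fluorescence-sorted ureteric bud lineage cells of mouse embryos at E16.5. The conditional knockout (cKO) embryos had the genotype Hoxb7Cre-GFP+, Ash2l F/F. The control embryos had the genotype Hoxb7Cre-GFP+, Ash2l F/+, so that they too carried the Cre transgene and 1 floxed allele. Each genotype had 3 libraries, labelled as biological replicates, and the embryos were untreated. The Hoxb7 promoter restricts Cre and GFP to the ureteric lineage. Neither the number of embryos behind a replicate nor the floxed exons are stated in the labels.

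The primary cilium is a sensory organelle that projects from the duct cell into the lumen. Intraflagellar transport (IFT) carries proteins along it, with IFT-B trains moving outward and IFT-A trains returning. The BBSome is a membrane coat that rides on these trains and exports receptors. The transition zone is the gate at the base of the cilium, and the inversin compartment lies just above it. Defects in these parts, or in the polycystins and fibrocystin that reside in the cilium, cause cystic or nephronophthisis-type kidney disease in humans and mice. RFX factors, which bind a DNA element called the X-box, are known to drive many cilium genes. ASH2L belongs to the SET1/MLL histone methyltransferases, which mark promoters by H3K4 methylation.

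Promoters were read for the X-box, and those of 4 BBSome and transition zone genes are shown because they carry the search result and the calls given further on. The windows span 250 bases before to 50 after the gene start, 5′ to 3′ on the gene's strand, from RefSeq on GRCm38.p6. That build differs from the one named in the submitters' processing notes, so the coordinates belong to the RefSeq table only. The 14-letter X-box searched consists of the arms GTTGCC and GGCAAC joined by AT. Capitals mark a match to it with at most 2 mismatches. Bbs7, Mks1 and Bbs1 had such a match. Bbs9, the gene with the largest fitted increase among the members, had none in this window.
Bbs9 (chr9:22475465-22475764, + strand): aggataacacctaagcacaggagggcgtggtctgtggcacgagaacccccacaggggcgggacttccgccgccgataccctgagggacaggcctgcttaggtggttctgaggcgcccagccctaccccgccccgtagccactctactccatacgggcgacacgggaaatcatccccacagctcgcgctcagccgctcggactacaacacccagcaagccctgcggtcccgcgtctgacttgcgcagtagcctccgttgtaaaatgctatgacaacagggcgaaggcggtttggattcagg
Bbs7 (chr3:36613340-36613639, - strand): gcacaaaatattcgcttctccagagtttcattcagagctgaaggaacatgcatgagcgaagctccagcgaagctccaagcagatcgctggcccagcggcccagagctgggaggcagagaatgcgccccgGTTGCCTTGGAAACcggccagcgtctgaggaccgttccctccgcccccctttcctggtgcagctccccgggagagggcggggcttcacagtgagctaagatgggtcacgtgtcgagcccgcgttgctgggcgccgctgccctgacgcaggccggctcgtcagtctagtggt
Mks1 (chr11:87852965-87853264, + strand): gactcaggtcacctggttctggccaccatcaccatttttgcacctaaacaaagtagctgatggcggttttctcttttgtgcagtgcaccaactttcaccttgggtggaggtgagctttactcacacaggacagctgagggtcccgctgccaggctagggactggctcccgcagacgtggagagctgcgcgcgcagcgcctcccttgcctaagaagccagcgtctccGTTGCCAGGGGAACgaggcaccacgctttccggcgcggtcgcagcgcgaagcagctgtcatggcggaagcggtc
Bbs1 (chr19:4906578-4906877, - strand): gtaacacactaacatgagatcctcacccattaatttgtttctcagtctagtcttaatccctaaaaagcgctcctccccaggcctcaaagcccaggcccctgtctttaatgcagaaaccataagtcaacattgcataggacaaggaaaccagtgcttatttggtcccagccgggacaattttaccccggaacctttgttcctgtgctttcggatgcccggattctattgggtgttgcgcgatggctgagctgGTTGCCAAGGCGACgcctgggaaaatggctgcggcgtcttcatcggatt

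A promoter window was matched for 30 of the 38 members. The 6-letter X-box arm, GTTGCC or GGCAAC on either strand, was present in 11 of the 30 (36.7%), against 14.8% of 13517 genes of the deposited table with a window. The 14-letter X-box overlapped this arm in the promoters shown. It was present in 3 of 30 members (10%), against 1.57% of those 13517 genes. The arm began 121 bases before the gene start in Bbs7 and 24 bases before it in Mks1. In Bbs1 it began at base 2 counted from the gene start. Ift57 held 2 arms and none of the 14-letter form. Members also carried 22 CG pairs per window at the median, against 19 for genes of the deposited table. A match is a description of the letters and does not show that a factor binds there.

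Library totals were 9620235 to 9860475 counts in cKO and 10359475 to 10538314 in controls. Ash2l had 451, 292 and 214 counts in cKO, against 1933, 1853 and 1624 in controls (log2 fold change -2.44, SE 0.284, edgeR adjusted p = 0.00786; -2.22 without cKO replicate 3). cKO replicate 3 stood apart. Among 11738 genes that exceeded 10 counts in all 5 remaining libraries, 1453 were listed at 0 there (12.4%). The same search found 0 to 3 genes for each of the others. Of the members, 5 of 38 were listed at 0 in that library (13.2%) and none in the others. Nek8, Anks6, Arl13b and Bbs12 were among them. Bbs1, Ift172 and Ift140 were also far below the other libraries there, with 1, 14 and 41 counts. Counts of calls and fitted fold changes are therefore given with all 6 libraries and, for most genes named, also without cKO replicate 3. Markers of ureteric epithelium had rows for 15 of 15 genes and summed to 6289 to 7227 CPM (library-scaled counts) in cKO, against 10720 to 11970 CPM in controls, with 5 lower and none higher. Stromal markers summed to 2.19 to 24.6 CPM in cKO and 10.3 to 27.5 CPM in controls, and Foxd1 was at 0 in cKO replicates 1 and 2. Thick ascending limb and distal tubule markers summed to 19.6 to 42.6 CPM in cKO, against 6.64 to 11.2 CPM in controls. Cldn16 and Kcnj1 were called higher of 3 tested. Kcnj1 and Pvalb were at 0 in all controls, and Pvalb was also at 0 in cKO replicates 1 and 2. Proximal tubule markers summed to 66.1 to 74.2 CPM in cKO, against 35.6 to 40.0 CPM in controls, with Aqp1 called higher of 7 tested and Miox at 0 in all controls. Podocyte markers summed to 1778 to 1990 CPM in cKO, against 126.6 to 174.3 CPM in controls. Cdkn1c, which other cells express too, made up most of this, and Nphs1 was at 0 in all controls. Endothelial markers summed to 26.2 to 29.5 CPM in cKO and 57.8 to 70.6 CPM in controls, with Egfl7 called lower of 3 tested and Flt1 at 0 in all controls. Nephron progenitor markers summed to 19.6 to 32.0 CPM in cKO and 14.9 to 18.2 CPM in controls, and blood cell markers to 57.4 to 96.1 CPM in cKO and 41.7 to 427 CPM in controls, with Hba-a1 at 2589 counts in control replicate 3. In bulk samples, fewer cells of a type and less RNA per cell cannot be told apart. The part of these shifts in the results on cilium genes was not tested.

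Of the 38 cilium and cystic kidney disease genes, edgeR called 1 with all 6 libraries, the BBSome gene Bbs9. Bbs9 rose 2.29-fold in cKO cells. The next members in order of p were Ift80, Mks1, Bbs7, Ift20 and Ift57, which were 1.39- to 2.13-fold higher in fitted value and which edgeR called once cKO replicate 3 was left out. All 38 members passed the filter on low counts. With 6 libraries, 1 member rose (2.63%), against 3.52% of the 13047 genes tested, and 0 fell, against 3.59%. By edgeR, 6 members had an unadjusted p under 0.05, and all 6 had higher fitted values. DESeq2 called these 6 higher and 0 lower. It also called more genes over the whole data, 2172 in both directions together, against 928 by edgeR. Shares of all genes by direction were not counted for either criterion, so these counts of members have no background beside them. The median log2 fold change was 0.03 over the members and -0.04 over all genes tested. Without cKO replicate 3, 6 members rose (15.8%), against 13.7% of 13660 genes, and 1 fell (2.63%), against 14.9%. The share that rose was near the background in both settings. The share that fell without cKO replicate 3 was below it, and this difference was not tested. The median was then 0.14 over the members and 0.01 over all genes.

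**Figure D1:**
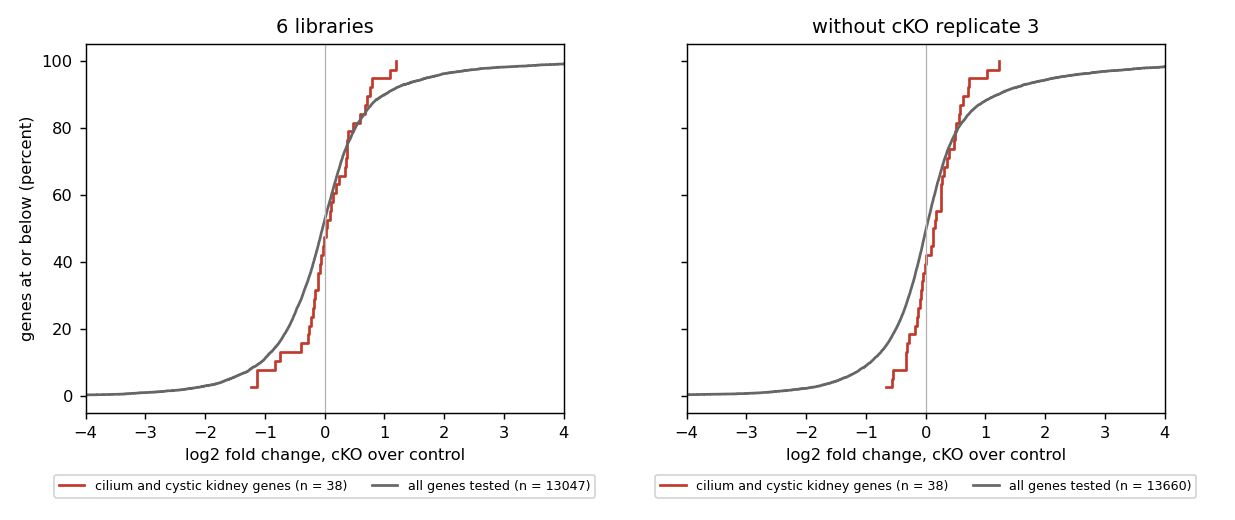
Cumulative distribution of the log2 fold change, cKO over control, for the cilium and cystic kidney genes and for all genes tested, with 6 libraries (left) and without cKO replicate 3 (right). The members run from -1.24 to 1.19 on the left and from -0.66 to 1.22 on the right, and their medians are 0.03 and 0.14.

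For many members the interval was narrow enough to bound the change. The log2 fold change ± 2 SE lay wholly within ±1, a 2-fold change, for 16 of 38 members with 6 libraries and for 30 of 38 without cKO replicate 3. Levels of all 3 cKO libraries were above all controls for 7 members (18.4%), against 16.6% of genes tested. These were Bbs9, Bbs7, Ift20, Ift57, Ift80, Ift88 and Mks1. All 3 were below all controls for 4 members (10.5%), against 20.8%. Nek8, Anks6 and Arl13b were among them, each listed at 0 in cKO replicate 3. Without that library, both cKO libraries were above all controls for 14 members (36.8%), against 28.9% of genes tested, and below them for 5 (13.2%), against 26.7%. Nek8, Anks6, Arl13b and Nphp4 were among those below.

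Per length, the members covered a wide range of levels. In FPKM, which are counts scaled to library size and gene length, the highest control means were those of the IFT-A gene Ift43 (48.2 ± 13.5 in cKO and 43.5 ± 3.89 in controls), the Rab-like GTPase gene Ift27 (40.3 ± 7.50 in cKO and 42.4 ± 6.01 in controls) and the IFT-B core gene Ift52 (39.0 ± 6.27 in cKO and 36.8 ± 1.39 in controls; SD, n = 3 each). The lowest in controls were Pkhd1, Glis3 and Bbs12, at 1.13, 1.23 and 1.00 FPKM in cKO and 0.833, 0.931 and 1.02 FPKM in controls. Ift20 had the highest mean FPKM of the 38 in cKO and ranked 4th in controls. Summed over the members, the level was 479, 476 and 439 FPKM in cKO, against 421, 387 and 395 FPKM in controls. The groups did not overlap in this sum, which weights the genes of highest FPKM most. It was not tested or set against sums over other genes. The median log2 fold change over the members was 0.03 with 6 libraries. IFT genes made up 304 to 325 FPKM of the sum in cKO and 253 to 282 FPKM in controls.

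**Figure D2:**
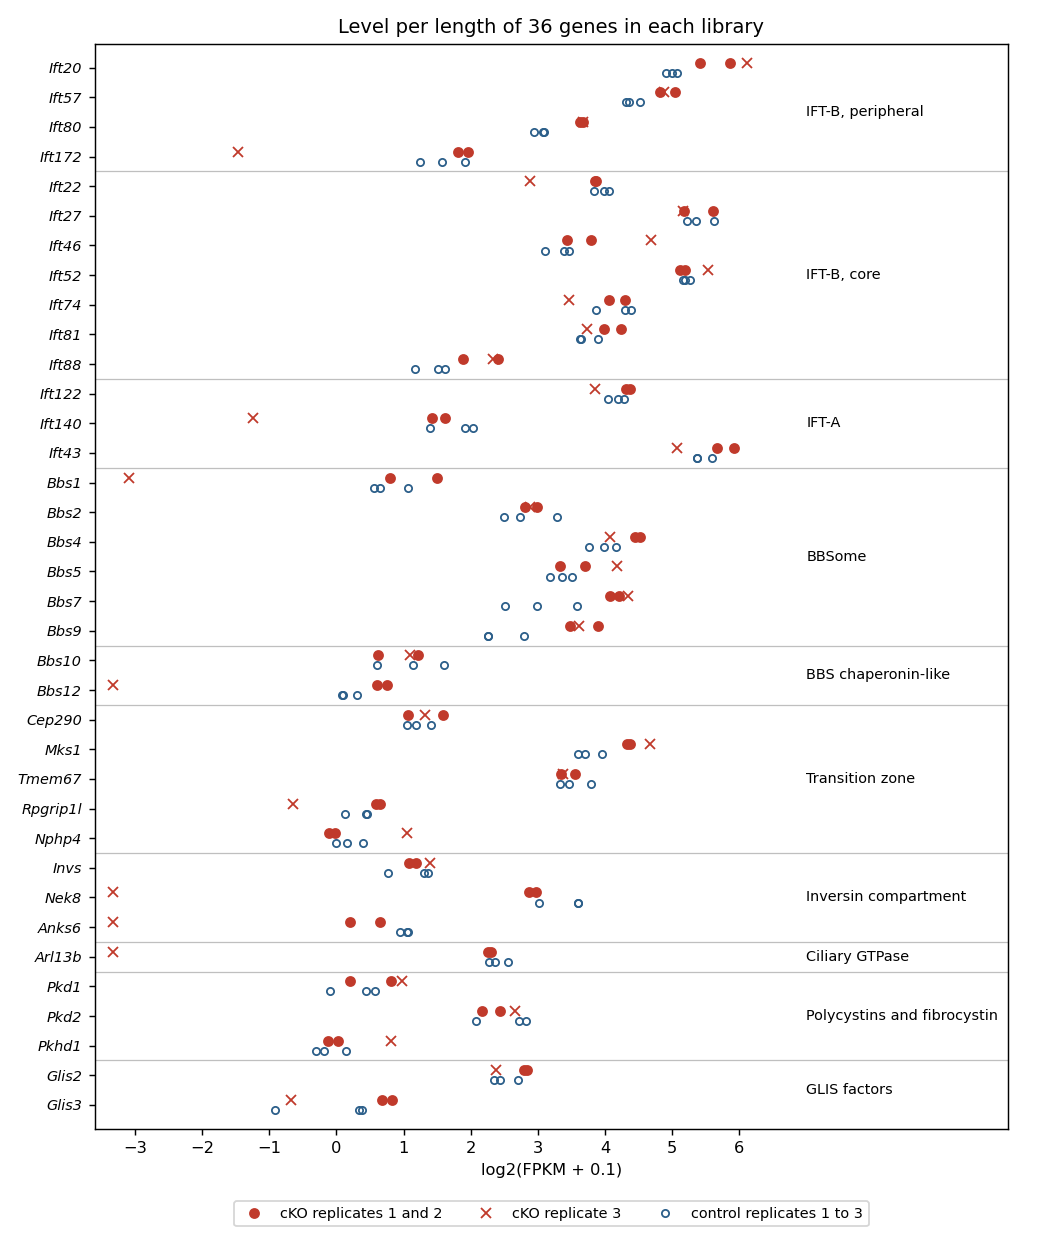
Level of each of 36 genes in each library as log2(FPKM + 0.1), grouped by role; filled circles are cKO replicates 1 and 2, crosses cKO replicate 3, and open circles controls. Crosses at the left edge are genes listed at 0 in cKO replicate 3; Ift20, Ift57, Ift80, Ift88, Bbs7, Bbs9 and Mks1 have every cKO library to the right of every control.

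The IFT-B genes include the peripheral subunits and the core on which they assemble. None of the 11 among the members was called with 6 libraries. Without cKO replicate 3, 3 of them rose (27.3%), against 13.7% of 13660 genes tested, and this difference was not tested. These 3 are peripheral subunits. The 9 tested IFT genes with other names had no call in either setting. Ift80, mutated in human skeletal ciliopathies, had 519, 523 and 534 counts in cKO and 375, 378 and 341 in controls. The cKO libraries lay close together and above every control. It had a log2 fold change of 0.59 (SE 0.158, adjusted p = 0.0766 by edgeR), and of 0.58 without cKO replicate 3 (SE 0.162, adjusted p = 0.0171). Ift20, whose product also resides at the Golgi and helps to sort membrane proteins to the cilium, had 648, 465 and 769 counts in cKO and 394, 359 and 382 in controls. Every cKO library was higher than every control, with cKO replicate 3 the highest. The log2 fold change was 0.79 (SE 0.217, adjusted p = 0.0825), and 0.62 without that library (SE 0.182, adjusted p = 0.0213). Ift57, a partner of Ift20, had 702, 804 and 729 counts in cKO, against 599, 530 and 547 in controls. Again the groups did not overlap. Its log2 fold change was 0.47 (SE 0.142, adjusted p = 0.101), and 0.49 without cKO replicate 3 (SE 0.147, adjusted p = 0.0233). Ift172, the largest peripheral subunit, had 181, 198 and 14 counts in cKO and 127, 209 and 164 in controls, and was called in neither setting.

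The 7 IFT-B core genes among the members had no call in either setting. They had log2 fold changes from -0.40 (Ift22) to 0.76 (Ift88) with 6 libraries and from -0.15 to 0.70 without cKO replicate 3. IFT genes with other names lie outside these ranges and counts and are taken up further on. Ift88, whose hypomorphic allele gives cystic kidneys in the mouse, had 153, 216 and 209 counts in cKO and 133, 125 and 97 in controls. The groups did not overlap, but its adjusted p was 0.238 by edgeR, and 0.0763 without cKO replicate 3. Ift46 had 470, 592 and 1123 counts in cKO and 393, 489 and 513 in controls, so that cKO replicate 3 held the highest value and the others overlapped. Ift52 had 804, 748 and 1019 counts in cKO and 846, 845 and 906 in controls, and its log2 fold change was 0.04 (SE 0.15), and -0.10 without cKO replicate 3 (SE 0.13). Ift74 and Ift81, which together bind tubulin cargo, had log2 fold changes of -0.26 (SE 0.268) and 0.24 (SE 0.201), and of -0.05 (SE 0.177) and 0.36 (SE 0.168) without that library. Of the 3 IFT-A genes among the members, Ift122 had 938, 881 and 652 counts in cKO and 784, 948 and 883 in controls. Its log2 fold change was -0.02 (SE 0.178), and 0.12 without cKO replicate 3 (SE 0.13). The fitted sign of Ift52 and Ift122 thus turned with that library, and neither gene was called in either setting. Ift140 had 330, 367 and 41 counts in cKO and 337, 497 and 540 in controls. Its log2 fold change was -0.83 (SE 0.711), and -0.33 without cKO replicate 3 (SE 0.208).

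Among the members, the BBSome genes held the largest fitted increases. Bbs9, a scaffold subunit, had 448, 585 and 489 counts in cKO and 198, 202 and 293 in controls. Every cKO library was above the highest control. Its level was 51.2 ± 7.13 CPM in cKO and 22.4 ± 5.37 CPM in controls (SD, n = 3 each), with a log2 fold change of 1.19 (SE 0.244, adjusted p = 0.0379 by edgeR). Without cKO replicate 3 it was 1.22 (SE 0.216, adjusted p = 0.000949). Left out in turn, each of the other 5 libraries ended the call: the adjusted p was 0.0837 without cKO replicate 1, 0.129 without cKO replicate 2, and 0.152, 0.166 and 0.0755 without control replicates 1, 2 and 3, while the log2 fold change stayed between 1.07 and 1.40. Bbs7, a subunit next to Bbs9 in the core of the coat, had 511, 454 and 560 counts in cKO and 346, 232 and 166 in controls. Its controls were spread more widely than its cKO libraries, and the groups did not overlap. The log2 fold change was 1.09 (SE 0.300, adjusted p = 0.0816), and 1.02 without cKO replicate 3 (SE 0.255, adjusted p = 0.0095).

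The other 4 BBSome genes among the members were not called in either setting. BBS genes with other names, such as Ttc8 and Bbip1, are not among these 4 and are counted further on. Bbs4 had 561, 521 and 408 counts in cKO and 460, 412 and 352 in controls, with a log2 fold change of 0.35 (SE 0.209). With cKO replicate 3 left out it had a log2 fold change of 0.47 (SE 0.171, adjusted p = 0.0565 by edgeR). Bbs2, the third subunit of the core that holds Bbs7 and Bbs9, had 214, 184 and 199 counts in cKO and 278, 191 and 161 in controls (log2 fold change -0.02, SE 0.311, and -0.02, SE 0.267, without cKO replicate 3). Bbs5, which binds phosphoinositides, had 216, 275 and 392 counts in cKO and 258, 209 and 237 in controls. Bbs1, which binds cargo, had 94, 153 and 1 counts in cKO and 89, 123 and 84 in controls. The BBSome genes thus included both of the largest increases and members with values close to those of controls. The chaperonin-like genes Bbs10 and Bbs12, which assist assembly of the coat, were at 1.00 to 1.90 FPKM in cKO and 1.02 to 2.15 FPKM in controls and were not called.

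**Figure D3:**
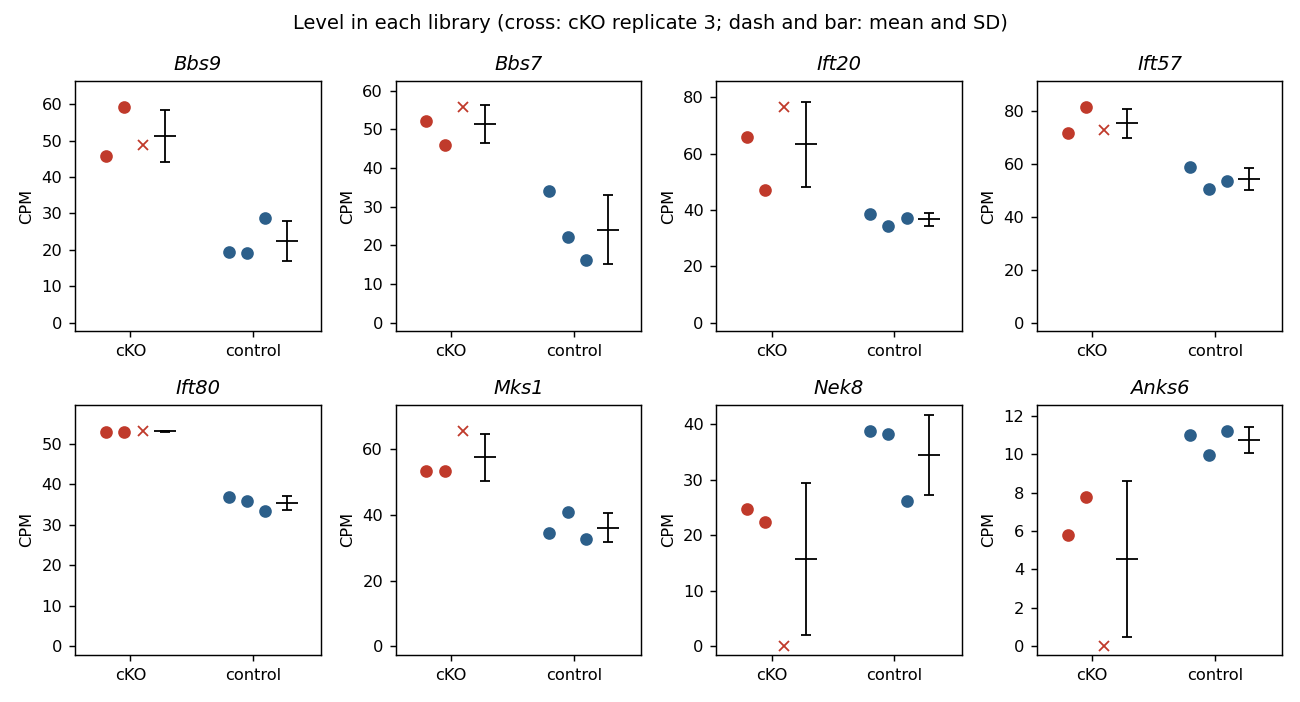
CPM in each library of 8 genes, with cKO left and control right; crosses mark cKO replicate 3, and dashes with bars the mean and SD. In the first 6 panels all cKO libraries lie above all controls, and in Nek8 and Anks6 cKO replicates 1 and 2 lie below all controls with cKO replicate 3 at 0.

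Among the transition zone genes of the members, Mks1 was higher in cKO cells without cKO replicate 3, and none was called with 6 libraries. Mks1, a B9-domain protein of the gate, had 524, 528 and 660 counts in cKO and 353, 432 and 336 in controls. All cKO libraries were above all controls. It had a log2 fold change of 0.67 (SE 0.184, adjusted p = 0.0805 by edgeR), and of 0.56 without cKO replicate 3 (SE 0.17, adjusted p = 0.0255).

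Nphp4, a scaffold protein of the gate, had 89, 81 and 197 counts in cKO and 128, 96 and 108 in controls. The first 2 cKO libraries were below all controls and cKO replicate 3 was above them, and neither setting called it (log2 fold change 0.20, SE 0.491, edgeR adjusted p = 0.86, and -0.32, SE 0.314, without cKO replicate 3). Cep290, which forms part of the links between microtubules and membrane at the gate, had 319, 212 and 261 counts in cKO and 251, 298 and 231 in controls. Tmem67, the receptor-like protein meckelin, had 364, 411 and 370 counts in cKO and 414, 384 and 532 in controls. Rpgrip1l, a scaffold of the gate, had 129, 120 and 47 counts in cKO and 115, 93 and 118 in controls. The groups overlapped in these 3 genes.

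The inversin compartment genes had no call. Nek8, a kinase mutated in the jck mouse with cystic kidneys, had 243, 221 and 0 counts in cKO and 396, 403 and 268 in controls. Its log2 fold change was -0.55 without cKO replicate 3 (SE 0.220, edgeR adjusted p = 0.0763) and -1.13 with it (SE 1.31). Anks6, which activates Nek8, had 57, 77 and 0 counts in cKO and 112, 105 and 115 in controls, with a log2 fold change of -1.24 (SE 1.34), and of -0.66 without cKO replicate 3 (SE 0.328, adjusted p = 0.151). Both genes were below all controls in every cKO library and neither passed the test. Invs, which encodes inversin, had 203, 183 and 234 counts in cKO and 157, 248 and 235 in controls (log2 fold change 0.02, SE 0.292, adjusted p = 0.984). Its exons overlap Tex10 on the other strand in the GENCODE annotation, so its counts may include reads of that gene. The sign of Invs turned without cKO replicate 3, and the groups overlapped. Arl13b, a GTPase of the ciliary membrane, had 180, 181 and 0 counts in cKO and 204, 239 and 195 in controls, and its log2 fold change was -0.75 (SE 1.34), and -0.17 without cKO replicate 3 (SE 0.228).

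The genes of polycystic kidney disease overlapped between the groups. Pkd1, which encodes the receptor-like polycystin-1, had 161, 248 and 284 counts in cKO and 134, 205 and 227 in controls (log2 fold change 0.35, SE 0.344, edgeR adjusted p = 0.621). Its exons overlap Tsc2 on the other strand. Pkd2, its cation channel partner, had 686, 559 and 803 counts in cKO and 565, 971 and 899 in controls (log2 fold change -0.19, SE 0.238, adjusted p = 0.714). Pkhd1, which encodes fibrocystin, had 138, 120 and 248 counts in cKO and 124, 114 and 162 in controls (log2 fold change 0.39, SE 0.409, adjusted p = 0.647). Its value in cKO replicate 3 was the highest of the 6, and without that library the log2 fold change was 0.01 (SE 0.287). With 6 libraries the interval of ± 2 SE for Pkd1 ran to 1.04 and so included a 2-fold rise. For Pkd1 and Pkd2 the interval of ± 2 SE without cKO replicate 3 ran from -0.39 to 0.74 and from -0.73 to 0.09 on the log2 scale. Changes of 2-fold or more lay outside those intervals, and changes within them could not be told from the spread among libraries.

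The GLIS genes encode zinc finger factors whose loss gives nephronophthisis-like or cystic kidneys. Glis2 had 357, 359 and 266 counts in cKO and 274, 297 and 358 in controls (log2 fold change 0.14, SE 0.236, edgeR adjusted p = 0.784). Glis3 had 257, 278 and 89 counts in cKO and 77, 219 and 212 in controls (0.37, SE 0.579, adjusted p = 0.771). In CPM, cKO replicates 1 and 2 were above every control in both genes and cKO replicate 3 was the lowest cKO value, and neither was called without it (log2 fold change 0.27, adjusted p = 0.317 for Glis2 and 0.72, adjusted p = 0.155 for Glis3).

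**Figure D4:**
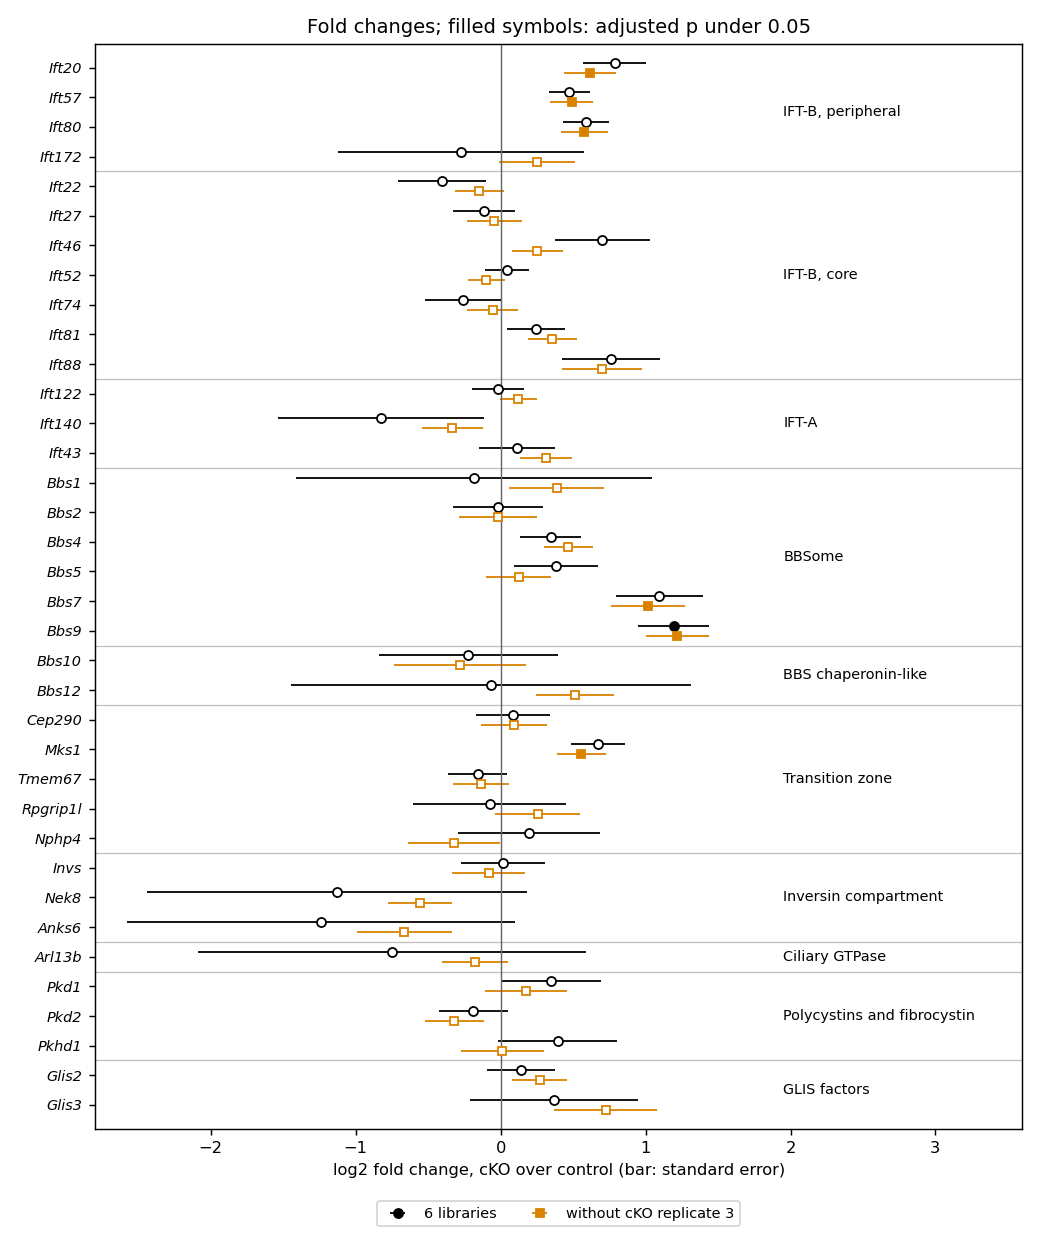
log2 fold change, cKO over control, of each of 36 genes with its standard error, with 6 libraries (circles) and without cKO replicate 3 (squares); filled symbols have an adjusted p under 0.05. Bbs9 is filled in both settings, and Bbs7, Ift20, Ift57, Ift80 and Mks1 without cKO replicate 3 only.

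Other cilium genes, which bear other names, were counted for comparison. Over 5 lists of IFT, motor, BBS, transition zone and basal body genes, 80 were tested, with a median log2 fold change of 0.11. Of these, 1 rose and 1 fell (1.25% each), against 3.52% and 3.59% of all genes tested. Kifap3, the adaptor of the kinesin-II motor that drives IFT-B trains, had 765, 820 and 886 counts in cKO and 500, 476 and 608 in controls. It rose by a log2 fold change of 0.70 (SE 0.157, edgeR adjusted p = 0.0478), and of the 6 tests that left out a library only that without cKO replicate 3 called it (0.65, SE 0.156). Kif3a, a motor subunit of kinesin-II, had 1184, 841 and 1339 counts in cKO and 583, 795 and 713 in controls, with 0.75 (SE 0.204, adjusted p = 0.0806), and 0.60 without cKO replicate 3 (SE 0.168). Dynll1, a light chain shared by dyneins and other complexes, had 2541, 3002 and 3162 counts in cKO and 4495, 4534 and 4771 in controls, and fell (log2 fold change -0.61, SE 0.102, adjusted p = 0.0207), a call that likewise held only without cKO replicate 3 (-0.67, SE 0.107). Among those not called, the smallest p-values within their lists belonged to Wdr35 and Ttc21b (log2 fold changes 0.33, SE 0.257, and -0.93, SE 0.862), Bbip1 and Lztfl1 (0.27, SE 0.121, and 0.67, SE 0.376), Dcdc2a and Ahi1 (0.43, SE 0.157, and 1.01, SE 0.387), and Ttbk2 and Cep120 (1.88, SE 0.561, and 0.80, SE 0.309). Without cKO replicate 3 the log2 fold changes were 0.0036 for Wdr35, -0.39 for Ttc21b, 0.25 for Bbip1, 0.20 for Lztfl1, 0.44 for Dcdc2a, 0.55 for Ahi1, 1.51 for Ttbk2 and 0.52 for Cep120. Those of Wdr35, Ttc21b, Lztfl1 and Ahi1 moved the most toward 0 in ratio. Without cKO replicate 3, 8 of the 80 rose (10%), against 13.7% of all genes tested, and 3 fell (3.75%), against 14.9%. Both shares were below those of all genes. Those that rose were Kif3a, Kifap3, Dynlrb1, Sdccag8, Dcdc2a, Nek1, Rab3ip and Ttbk2, and the genes that fell were Dynll1, Tmem237 and Adcy3. Among the 9 tested IFT genes and the 9 tested BBS genes with other names, edgeR called 0 in either setting. With 6 libraries 0 of these had an unadjusted p under 0.05, and DESeq2 called 0.

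Among 22 tested genes of a further list of cystic disease genes, 1 rose and none fell with 6 libraries. Of all genes tested, 3.52% rose and 3.59% fell. The median log2 fold change of the list was 0.06. The gene that rose was Bicc1, an RNA-binding protein whose loss gives cystic kidneys in mice. It had 1925, 2010 and 1744 counts in cKO and 783, 839 and 878 in controls, with no overlap. It rose by a log2 fold change of 1.25 (SE 0.114, adjusted p = 0.00567 by edgeR; 1.30 without cKO replicate 3), and the call was kept in all 6 tests with a library left out. Muc1, with the next smallest p, had a log2 fold change of -1.21 (SE 0.491, adjusted p = 0.204), and of -0.94 without cKO replicate 3. Without cKO replicate 3, 3 of the 22 rose, against 13.7% of all genes tested, and 5 fell, against 14.9%. Bicc1, Ganab and Vhl rose, and Alg8, Cys1, Jade1 and Lrp5 were among those that fell. These differences from all genes were not tested. Cys1, which encodes the ciliary protein cystin, had 224, 260 and 5 counts in cKO and 508, 446 and 387 in controls. It was counted in this list and not among the 80 other cilium genes.

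Of 11 tested hedgehog pathway genes, whose signalling passes through the cilium, none was called by edgeR with 6 libraries. Of these, 1 had an unadjusted p under 0.05, and DESeq2 called 0. Sufu, an inhibitor of GLI factors, had 303, 453 and 217 counts in cKO and 528, 598 and 594 in controls (log2 fold change -0.76, SE 0.289, adjusted p = 0.179, and -0.54 without cKO replicate 3), and Gas1, a co-receptor, had -0.52 (SE 0.241, and -0.39 without it). Once cKO replicate 3 was left out, 1 of 12 tested rose (Cdon), against 13.7% of all genes tested. At the same time 2 of the 12 fell (Gli2 and Sufu), against 14.9%. Gli2, an effector of the pathway, had 2, 0 and 171 counts in cKO and 54, 25 and 21 in controls, so that cKO replicate 3 differed in direction from the other 2. Of 8 tested ciliogenic transcription factors, Tfdp1, a partner of E2F factors, fell (log2 fold change -0.94, SE 0.128, adjusted p = 0.0115; -0.997 without cKO replicate 3), a call kept in 3 of 6 tests with a library left out. Myb fell too once cKO replicate 3 was left out. Of all genes tested, 3.59% fell with 6 libraries and 14.9% without cKO replicate 3. No RFX gene was called in either setting, and Rfx7, with the next smallest p, had 1.07 (SE 0.474), and 0.62 without cKO replicate 3. Motile cilium markers summed to 132 to 144 CPM in cKO, against 134.5 to 165 CPM in controls, and Dnah5, Hydin and Cfap43 were at 0 in all controls. Of 7 tested, Ccdc40 rose and Dnah11 fell, against 3.52% and 3.59% of all genes tested. Neither was called with any library but cKO replicate 3 left out. Cilia are taken down before mitosis. Of 20 G2/M genes 14 fell and none rose with 6 libraries, against 3.59% and 3.52% of all genes tested. Their sums were 991 to 1532 CPM in cKO against 3624 to 4431 CPM in controls. The part of this shift in the values of the cilium genes was not tested.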

How the data were processed

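Raw counts per gene and FPKM values for 6 libraries were deposited by the authors. The submitters' processing notes name HISAT2, HTSeq, Cufflinks, DESeq and the GRCm39 build, but no version or order. The deposited FPKM values were the counts divided by gene length and a library factor (relative deviation at most 2.53e-07) and are no second measurement. Libraries were strand-preserving per the labels' protocols. How strand was used in counting is not stated, and 8 members, among them Cep290, Ift57, Ift88, Invs, Pkd1, Pkhd1 and Tmem67, have exons overlapping a gene on the opposite strand in GENCODE M21.

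Counts were fitted with edgeR 4.0.16 in R 4.3.3 (filterByExpr, TMM factors, robust quasi-likelihood F-test, genotype as sole factor). Benjamini-Hochberg adjustment ran over all 13047 genes tested, and a gene was called at an adjusted p under 0.05. SE is the log2 fold change over the square root of F. CPM was computed from the counts with TMM factors. No pair of replicates agreed within counting noise (chi-square per degree of freedom 9.9 to 71.7). The labels call replicates biological without naming embryos, so p-values reflect the spread among libraries only. Members and lists were chosen with earlier results of these data known. Given in full are Ash2l, members called with 6 libraries or without cKO replicate 3, and, whatever their values, Pkd1, Pkd2, Pkhd1, Glis2, Glis3, Nphp4 and Invs. Values of 2 members and of some genes of other lists are not reported here, though counts over all members include them. From each other list the 2 genes with the smallest p and any called are named, and any further gene was chosen after its values were seen. DESeq2 1.42.0 and limma 3.58.1 served as alternatives. Intervals of ± 2 SE come from the edgeR fits and cover the spread among libraries as well as counting error.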

Additional observations from a re-analysis of the deposited data

How the results depend on the processing

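The count of members that rose (1 with 6 libraries) was the same with DESeq2 size factors in edgeR, with no filter, with a filter of at least 10 CPM in at least 3 libraries, without the genes at 0 in cKO replicate 3 and on log2(FPKM + 1) without a filter. It was 6 with DESeq2, 7 with limma voom and library weights, 4 on log2(FPKM + 1), 3 on log2(FPKM + 0.1), and 0 to 6 with 1 library left out. The count that fell was 0 throughout, except 1 without cKO replicate 3. Alternatives chosen after seeing the data left out cKO replicate 3 and used DESeq2 size factors or DESeq2: both gave 6 that rose and 1 that fell. Over all genes, the 928 calls became 2172 with DESeq2, 3363 with library weights, 1456 on log2(FPKM + 1), 3898 and 3877 in the added alternatives, and 121 to 3897 with 1 library left out. The 2 calls among the 80 other cilium genes became 5 with DESeq2, 9 with library weights, 1 with no filter on counts or on FPKM, 11 in both added alternatives and 0 to 11 with 1 library left out. With the replicate number as a block, 23 genes were called and no member, and the adjusted p of Ash2l was 0.0537 and that of Bbs9 0.134; same-numbered libraries did not deviate together (correlations -0.022, 0.025 and -0.00145), and not every library correlated best with its own number. The median of the members was 0.18 with library weights, and -0.06 without cKO replicate 1. The share of promoters with an X-box was 10% for the 14-letter form. The summed FPKM of cKO over control was 1.16, and 1.14 to 1.19 with 1 library left out.

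Among the members given in full, the direction turned for 2, none of which any setting called. Invs had -0.081 without cKO replicate 3, -0.093 with library weights, and -0.068 and -0.069 in the added alternatives, with -0.16 to 0.11 when 1 library was left out. Nphp4 had -0.32 without cKO replicate 3, -0.26 with library weights and -0.31 in both added alternatives, with -0.32 to 0.42 when 1 library was left out. The cause was not tested. With 1 cKO library at 0, members such as Nek8 and Anks6 have errors over 1 on the log2 scale, so that falls of 2-fold are not detectable with 6 libraries.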
